A study of Mus musculus with 7 samples.

Results

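Hox genes encode homeodomain transcription factors that give cells their position along the body axis. They lie in 4 clusters, HoxA to HoxD, and are numbered by paralogue group, so that genes of low number sit at one end of a cluster and those of high number at the other. Genes of high number (posterior genes) are used in the hindmost parts of the embryo, among them the ducts and the urogenital sinus from which the seminal vesicle, the epididymis and the prostate grow, and genes of middle number act further forward along the trunk. Adult connective tissue and epithelium keep part of this pattern.

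All genes whose symbol was Hoxa, Hoxb, Hoxc or Hoxd followed by a number were taken from the feature tables of a droplet study of single cells from the seminal vesicles of mice. They came to 39 genes of the 30406 that both gene references share, and 35 of them had at least 20 UMIs (unique molecular identifiers, counted molecules) over all gated cells. HoxA (chromosome 6, 52155590 to 52260880) held 5.94% of the 71181 Hox UMIs, HoxB (chromosome 11, 96194316 to 96368256) 70.6%, HoxC (chromosome 15, 102921103 to 103036852) 4.44% and HoxD (chromosome 2, 74668310 to 74765142) 19.0%, on mm10. They were read in 23 male mice: an aging pool of 10 C57BL/6J mice of 3, 20 and 28 months on chow, of which 4 had received rapamycin, a diet pool of 8 FVB/NJ mice of 3 months on control, high fat, low protein or calorically restricted diets with 2 mice each, 3 single-mouse libraries of FVB/NJ mice of 3 months on control, high fat and low protein diets, and 2 single-mouse libraries called here the young individual (3 months) and the old individual (18 months), both FVB/NJ on the control diet. The labels name no engineered allele in any group. Cells were assigned to classes by marker RNA alone: fibroblasts by *Col1a1* and *Col1a2*, smooth muscle by *Myh11*, basal cells by *Krt5*, *Krt14* and *Krt15*, secretory cells by at least 20% of their UMIs on 7 *Svs* genes (the seminal vesicle secretion genes), prostate-like cells by *Tgm4* and *Pbsn*, endothelial cells by *Pecam1*, immune cells by *Ptprc*, *Laptm5* and *Coro1a*, and other epithelial cells by *Epcam*, *Cdh1*, *Krt8* and *Krt18* with none of the former.

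The libraries of the young and the old individual went against their tissue label. *Svs* genes took 0.00110% and 0.000607% of their UMIs, against 7.87 to 64.0% in the other 21 mice, and neither library held a secretory or a prostate-like cell by these gates. An 11-gene list of epididymis epithelium, which includes *Lcn8* and *Gpx5*, reached 44992 and 79234 CPM of all UMIs in them, against 0.312 to 603 in the others. The 2 libraries therefore stay apart from the other 21 mice throughout, and each class is described first without them. They also gave more Hox UMIs, 17593 to 34596, than the other mice, with 152 to 4452 each. Over all mice 53352 barcodes were deposited and 40342 cells were kept, at 174 to 9164 cells and 971402 to 46333394 UMIs per mouse. Pairs of libraries shared 1 to 20 cell barcodes, at most 0.380% of the smaller one.

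All levels below are CPM, here UMIs per 1000000 UMIs of the class outside the 7 *Svs* genes, since *Svs* RNA took 58.8 to 65.4% of the UMIs of secretory cells and would otherwise press down every other gene there. Means are over mice with at least 10 cells of the class and carry the SD. Immune cells had a total of 21.5 ± 13.2 CPM of Hox genes (SD, n = 21 mice), against 269 ± 86.2 in basal cells (n = 19), 273 ± 73.2 in fibroblasts (n = 21), 281 ± 108 in secretory cells (n = 21), 343 ± 138 in smooth muscle (n = 9), 389 ± 116 in endothelial cells (n = 18), 402 ± 59.7 in prostate-like cells (n = 13) and 464 ± 125 in other epithelial cells (n = 13). The classes other than immune had ranges over mice that overlapped in the total, and they differed in which genes made it up. The mean of other epithelial cells lay above the highest mouse for fibroblasts (427) and for basal cells (450). The totals were not tested against each other.

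**Figure D1:**
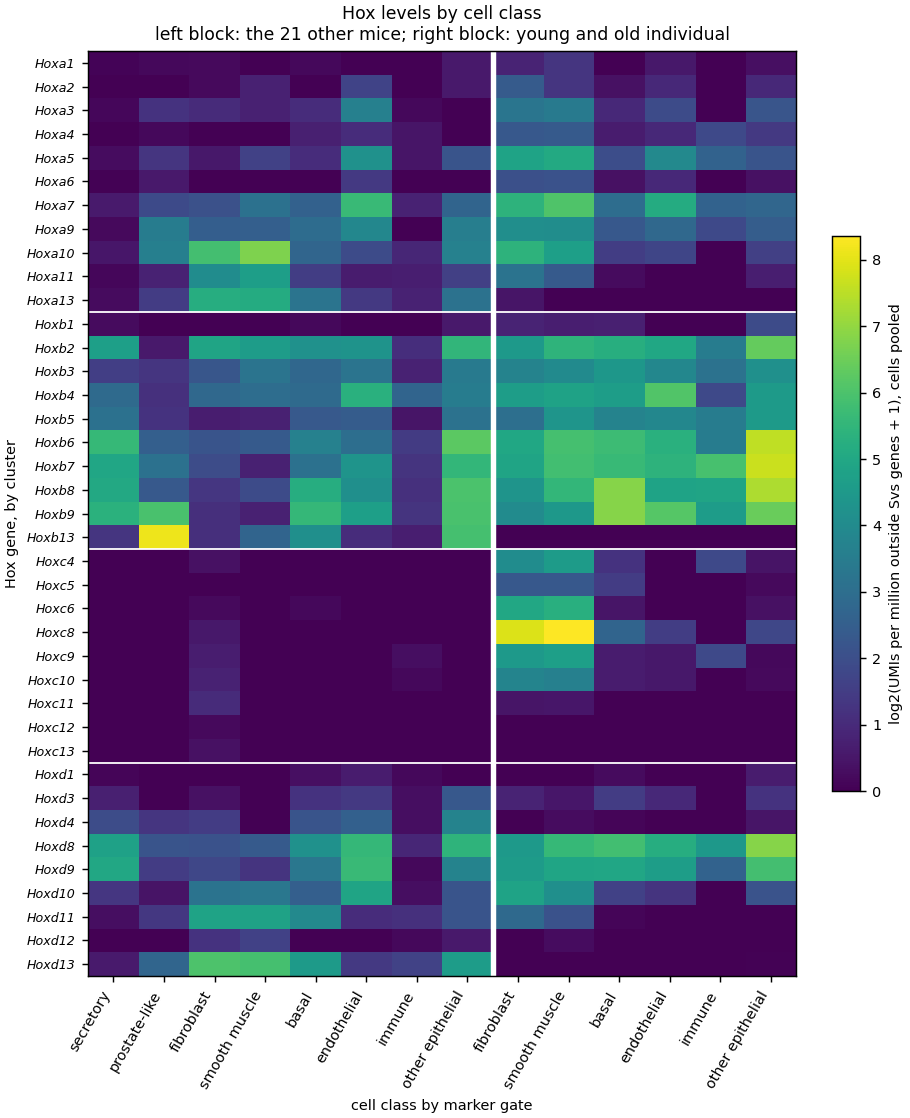
Level of each of the 39 Hox genes (rows, by cluster) in each cell class (columns), as log2 of CPM outside *Svs* genes plus 1, with the cells of all mice pooled; the left block holds the 21 other mice and the right block the young and the old individual. Stromal classes on the left hold *Hoxa10*, *Hoxa13* and *Hoxd13*, and the same classes on the right hold *Hoxc8* (242 in fibroblasts) and no *Hoxd13* UMI.

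The RefSeq sequence before the start of 4 Hox genes is shown here because these genes move in opposite directions in the comparison of the young and the old individual with the other mice: *Hoxa13* and *Hoxd13* are lower there, *Hoxc4* and *Hoxb8* higher in fibroblasts. Each line holds the 250 bases before the RefSeq start on build GRCm38.p6, with CG dinucleotides in capitals. For *Hoxc4* that start lies inside the gene as annotated for Ensembl, which begins at 103018934, so its window is not upstream of the whole gene. The windows are chr6:52260881-52261130 (- strand) for *Hoxa13*, chr2:74667975-74668224 (+) for *Hoxd13*, chr15:103034145-103034394 (+) for *Hoxc4* and chr11:96281655-96281904 (+) for *Hoxb8*.
Hoxa13: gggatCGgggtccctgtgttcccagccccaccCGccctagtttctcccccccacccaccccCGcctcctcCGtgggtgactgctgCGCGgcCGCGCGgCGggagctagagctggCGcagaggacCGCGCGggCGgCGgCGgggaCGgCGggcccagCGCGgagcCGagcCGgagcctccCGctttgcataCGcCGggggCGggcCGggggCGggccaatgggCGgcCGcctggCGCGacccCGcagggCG
Hoxd13: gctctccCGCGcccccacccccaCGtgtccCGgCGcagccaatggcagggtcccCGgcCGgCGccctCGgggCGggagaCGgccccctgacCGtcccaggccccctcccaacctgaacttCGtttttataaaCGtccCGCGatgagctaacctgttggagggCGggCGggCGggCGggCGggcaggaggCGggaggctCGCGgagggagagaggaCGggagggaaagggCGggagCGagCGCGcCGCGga
Hoxc4: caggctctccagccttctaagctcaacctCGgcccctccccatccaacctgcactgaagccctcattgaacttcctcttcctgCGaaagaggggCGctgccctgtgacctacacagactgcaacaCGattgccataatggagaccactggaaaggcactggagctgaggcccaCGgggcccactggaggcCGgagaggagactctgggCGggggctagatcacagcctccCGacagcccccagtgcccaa
Hoxb8: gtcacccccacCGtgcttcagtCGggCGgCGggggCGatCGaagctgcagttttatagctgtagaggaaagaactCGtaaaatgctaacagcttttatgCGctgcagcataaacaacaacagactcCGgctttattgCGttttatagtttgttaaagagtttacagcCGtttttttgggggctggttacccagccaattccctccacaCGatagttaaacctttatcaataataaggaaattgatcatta

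The windows of *Hoxa13* and *Hoxd13* held 35 and 31 CG dinucleotides, and those of *Hoxc4* and *Hoxb8* held 8 and 12. The median over 32851 promoter windows of the table was 6, and the median over the 24 windows of 22 Hox genes was 12.5. On either strand, the letters GGGCGG were present in all 4 windows (32.7% of all windows), CCAAT in 3 of them (33.9% of all windows, *Hoxc4* without it), TATAAA in *Hoxd13* and *Hoxb8* (12.4%) and TTTATG in *Hoxb8* alone of the 4 (10.8%). These matches describe the letters and are not binding sites.

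In the fibroblasts of the 21 mice with *Svs* RNA, the Hox RNA was posterior. *Hoxd13* and *Hoxa13*, which pattern the hindmost urogenital tissue, and *Hoxa10*, which patterns the genital ducts, had the highest means. Paralogue group 13 made up 36.1 ± 5.14% of the Hox UMIs of a mouse's fibroblasts and groups 10 to 12 made up 39.5 ± 7.69% (SD, n = 20 mice with at least 20 Hox UMIs). Secretory cells of the same mice gave 1.70 ± 1.92% and 1.43 ± 1.23% for the same groups (n = 21). Their Hox UMIs were on groups 5 to 8 (53.3 ± 6.20%) and 9 (28.4 ± 6.01%).

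*Hoxd13* was the highest Hox gene of fibroblasts. It ran from 24.5 to 88.4 with a median of 44.7 in the 10 mice of the aging pool, from 59.3 to 85.1 with a median of 74.1 in the 8 mice of the diet pool, and stood at 69.8, 65.8 and 104 in the single control, high fat and low protein libraries. Every one of these mice had *Hoxd13* UMIs in its fibroblasts.

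*Hoxa10* ran from 12.2 to 85.9 over the 21 mice with a median of 50.7, and *Hoxa13* from 0 to 69.2 with a median of 32.3. *Hoxd11* ran from 0 to 73.3 (median 29.5) and *Hoxa11* from 0 to 26.2 (median 12.2). The values of 0 came from 1 aging-pool mouse for *Hoxa13*, 1 diet-pool mouse for *Hoxd11* and 3 mice for *Hoxa11*. The order of the means was *Hoxd13* (61.9 ± 20.9), *Hoxa10* (50.9 ± 21.9), *Hoxa13* (34.5 ± 15.2), *Hoxd11* (29.8 ± 16.1), *Hoxb2* (27.4 ± 18.8) and *Hoxa11* (12.3 ± 8.32), and each differed from the next by less than the larger SD of the pair.

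Against the other gated cells of the same mouse, 6 of the 23 Hox genes tested were higher in fibroblasts and 11 lower (edgeR, blocked by mouse, adjusted p under 0.05 over all genes). Of all 15366 genes tested, 21.1% were higher and 40.3% lower. The higher genes were *Hoxa13* (log2 difference 3.43 ± 0.31 SE), *Hoxd13* (3.20 ± 0.33), *Hoxa10* (3.17 ± 0.36), *Hoxa11* (3.17 ± 0.33), *Hoxd11* (2.91 ± 0.42) and *Hoxd10* (1.04 ± 0.26). The lower ones were *Hoxb5* to *Hoxb9*, *Hoxb13*, *Hoxd3*, *Hoxd4*, *Hoxd8*, *Hoxd9* and *Hoxa5*, down to -5.38 ± 0.27 for *Hoxb9* and -5.38 ± 0.32 for *Hoxb13*. With library size in place of TMM scaling the counts became 8 higher and 8 lower, beside 8253 and 1980 of all 15366 genes. None of the 17 Hox genes changed sign. The median over all genes was -0.35 with TMM and 0.82 with library size.

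Smooth muscle of these mice had the same leading genes, from fewer cells. *Hoxa10* was at 92.0 ± 73.3 (SD, n = 9), *Hoxd13* at 58.9 ± 34.0 and *Hoxa13* at 45.5 ± 38.3, each with a lowest mouse at 0. Mice of the aging pool had fewer than 10 such cells each and are not in these means. Of 23 Hox genes tested against the other cells, 5 were higher (*Hoxa10*, *Hoxa11*, *Hoxd11*, *Hoxa13* and *Hoxd13*) and 9 lower, where 7.62% of all genes were higher and 25% lower. *Lum*, a fibroblast gene that the gates did not use, stood in smooth muscle at 7.08% of its fibroblast level, while *Hoxa13* and *Hoxd13* stood at 97.0% and 89.5% of theirs.

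Secretory cells carried the middle of HoxB with *Hoxd8* and *Hoxd9*. *Hoxb6* ran from 11.6 to 85.2 with a median of 41.1 over the 21 mice, *Hoxb9* from 27.0 to 209 with a median of 43.5, *Hoxb8* from 15.7 to 81.5 with a median of 35.0, and *Hoxd9* from 10.5 to 46.6 with a median of 27.4. Every mouse had all 4 genes. *Hoxb6* was not particular to secretory cells. Pooled over the 21 mice it stood at 75.5 in other epithelial cells, 47.1 in secretory cells and 11.9 in basal cells. Other epithelial cells were not tested as a class against the other cells. The mouse at 209 for *Hoxb9* was one on caloric restriction in the diet pool, whose *Svs* share of UMIs, 7.87%, was the lowest of the 21 mice. That mouse had 16 secretory cells.

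The same cells had almost no posterior HoxA RNA. *Hoxa13* had 12 and *Hoxa10* 26 UMIs over all secretory cells of the 21 mice, which is 0.555% and 0.752% of their fibroblast CPM, while *Lum* stood at 0.457%. Of 23 Hox genes tested, 10 were higher in secretory cells and 11 lower, where 23.4% and 48% of all genes were. The higher genes were *Hoxb6* (2.95 ± 0.15), *Hoxb7* (2.77 ± 0.16), *Hoxd9* (2.73 ± 0.16), *Hoxd4* (2.48 ± 0.24), *Hoxb5* (2.16 ± 0.25), *Hoxb8* (2.10 ± 0.21), *Hoxd8* (1.94 ± 0.16), *Hoxb2* (1.70 ± 0.19), *Hoxd3* (1.44 ± 0.51) and *Hoxb9* (1.43 ± 0.22). With library size scaling *Hoxb2* (-0.31), *Hoxb9* (-0.58), *Hoxd3* (-0.39) and *Hoxd8* (-0.09) changed sign. Under it 4 Hox genes were higher and 13 lower, beside 280 and 14228 of all 15366 genes. The median of all genes was then at -2.45 in place of -0.42. The *Hoxd4* value depends on the annotation. The older reference of the single-mouse libraries lists a second *Hoxd4* entry, and the shared entry held 0.0746 CPM in secretory cells of the single-mouse diet libraries against 6.65 and 11.9 in the pools.

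Prostate-like cells were set apart by *Hoxb13*, a posterior gene of the prostate epithelium. It ran from 247 to 376 with a median of 286 in 7 mice of the aging pool and from 180 to 358 with a median of 225 in 6 mice of the diet pool, and made paralogue group 13 take 70.6 ± 7.02% of their Hox UMIs (SD, n = 13). Of 23 Hox genes tested, 3 were higher than in the other cells, *Hoxb13* (4.80 ± 0.29), *Hoxa9* (1.5 ± 0.31) and *Hoxb9* (0.66 ± 0.13), and 16 lower, beside 18% and 42.5% of all genes. With library size scaling 5 were higher and 13 lower, beside 8338 higher and 3158 lower of all 14682 genes. *Hoxb9* was at 59.3 ± 14 (n = 13).

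*Hoxb13* was also present outside that gate in the pools. In other epithelial cells it pooled to 91.6 in the diet pool and 15.5 in the aging pool, and in basal cells to 21.4 and 16.5. The 3 single-mouse diet libraries and the young and the old individual had 0 *Hoxb13* UMIs in both classes. *Tgm4*, which marks the prostate-like cells, stood in basal cells at 0.719% of its level in prostate-like cells and in other epithelial cells at 1.55%, while *Hoxb13* stood at 6.05% and 20.7%. The pools held 311 and 244 prostate-like cells and the single-mouse diet libraries 10, and the part of that difference in the *Hoxb13* values was not tested.

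Endothelial cells held a trunk pattern in both HoxA and HoxD. *Hoxd9* was at 51.3 ± 20.8 (SD, n = 18), *Hoxb4* at 44.1 ± 37.2, *Hoxd8* at 42.0 ± 27.1, *Hoxa7* at 38.6 ± 25.7 and *Hoxa5* at 20.5 ± 15.6. Of 23 Hox genes tested, 7 were higher than in the other cells, where 12.9% of all genes were, and 10 were lower, where 42.1% were. The higher genes were *Hoxa5* (4.01 ± 0.33), *Hoxa7* (3.71 ± 0.35), *Hoxa3* (3.69 ± 0.61), *Hoxd10* (2.51 ± 0.43), *Hoxb4* (1.97 ± 0.29), *Hoxa9* (1.71 ± 0.54) and *Hoxd9* (1.08 ± 0.27). With library size scaling 9 were higher and 2 lower, and *Hoxb7* (0.73), *Hoxb8* (0.27) and *Hoxb9* (0.38) changed sign from lower. Under that scaling 6266 of all 15274 genes were higher and 1560 lower, with their median at 0.69 in place of -0.80.

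Basal cells differed between the sets of mice. In the 3 single-mouse diet libraries, *Hoxb9* was at 107, 105 and 136 (control, high fat, low protein) and paralogue group 13 made up 0.652 ± 0.693% of the Hox UMIs (SD, n = 3). In the pools *Hoxb9* was at 49.0 ± 21.6 (aging pool, n = 8) and 32.9 ± 7.32 (diet pool, n = 8), and group 13 made up 16.9 ± 10.3% and 26.3 ± 5.30%. *Hoxd13* ran from 0 to 32.6 with a median of 12.5 in basal cells of the aging pool and from 16.3 to 46.0 with a median of 29.4 in those of the diet pool, while the single-mouse libraries had 1 UMI in all (0.803 CPM). *Lum* was at 0.363% of its fibroblast level in basal cells of the 21 mice, and *Hoxd13* was at 34.5% of its own. *Dcn* and *Pdgfra*, also fibroblast genes outside the gates, stood at 832.5 and 4.47 CPM of all UMIs in these basal cells. In fibroblasts they stood at 4584 and 305. The part of fibroblast RNA in the basal *Hoxd13* values was not tested. Against the other cells 1 of 23 Hox genes was higher (*Hoxd11*) and 8 lower, beside 17% and 41.4% of all genes. Library size scaling turned this to 10 higher and 0 lower, beside 6952 and 1769 of all 15237 genes, and the median over all genes from -0.47 to 0.72. No direction is therefore given for basal cells as a class.

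**Figure D2:**
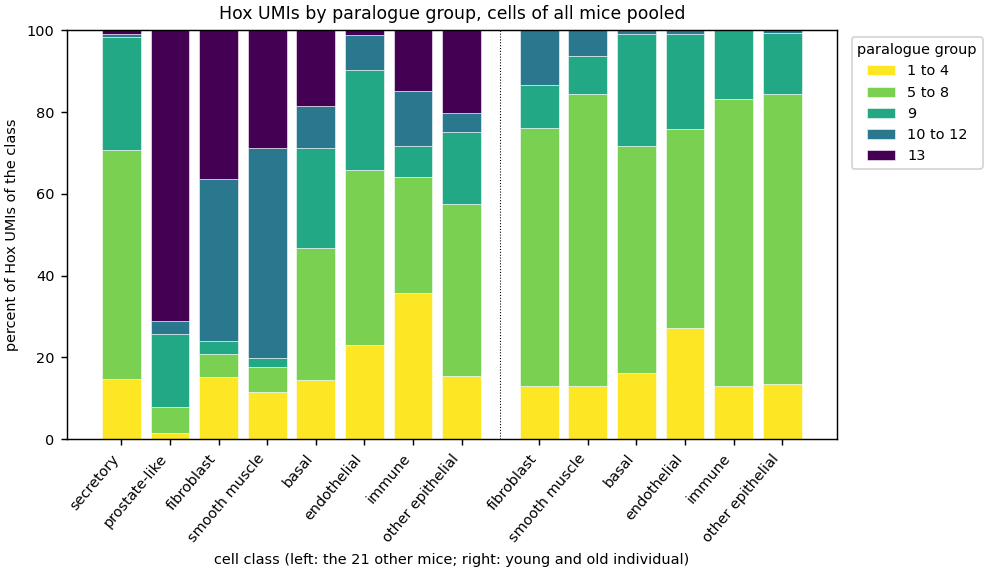
Percent of the Hox UMIs of each cell class that fell on each paralogue group, with the cells of all mice pooled; bars on the left are the 21 other mice and bars on the right the young and the old individual. Group 13 (darkest) takes 36.3% in fibroblasts, 71.0% in prostate-like cells and 0.839% in secretory cells on the left, and 0.053% in fibroblasts on the right.

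The question set by the grouping was whether the Hox genes of the young and the old individual followed those of the other mice, class by class. In the stroma they did not, where *Hoxa13* and *Hoxd13* were at 1 UMI and 0 UMIs in fibroblasts and 5 HoxC genes were higher. In fibroblasts, 25 Hox genes could be tested, 19 were higher in these 2 mice than in the mean of the other 3 sets and 3 were lower (edgeR, adjusted p under 0.05). Of all 11809 genes tested, 12.8% were higher and 6.45% lower. The median log2 difference was 3.05 over the Hox genes tested and 0.12 over all genes. With the DESeq2 test 10 were higher and 3 lower, beside 929 and 721 of all 11809 genes. With edgeR's own filter on low counts 7 could be tested, of which 2 were higher and 3 lower. That filter left 6192 genes in all, with 929 higher and 734 lower. The 14 other Hox genes had fewer than 20 UMIs in these fibroblasts and were not tested, so these counts do not speak for all 39. The fibroblast gate need not hold the same mix of cells in both groups. In the 2 individuals its cells had *Acta2* at 2484 and *Myh11* at 156 CPM of all UMIs, against 284 and 12.7 in the other mice. *Dcn* stood at 6838 against 4584 and *Pdgfra* at 188.5 against 305. The part of this difference in the Hox values was not tested.

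*Hoxc8*, a trunk gene, had the greatest fitted difference of the 25 (log2 8.64 ± 0.34, adjusted p = 7.2e-31). The young individual had 227 *Hoxc8* UMIs in fibroblasts (175 CPM) and the old individual 398 (311 CPM), and the other 21 mice had 3 together, with 18 mice at 0. The pooled ratio was 536 (95% interval 183 to 2607, for counting error only). In smooth muscle the 2 individuals stood at 211 and 426 and the other mice at 0 UMIs, which puts the level at least 158-fold higher, with a floor of 3 counts over the group. The groups did not overlap in either class, and the DESeq2 test gave an adjusted p of 0.55 for *Hoxc8* in smooth muscle.

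*Hoxc6*, its neighbour in the cluster, had 38 and 43 UMIs in fibroblasts (29.2 and 33.6 CPM) and 1 UMI in the other 21 mice. *Hoxc4* (log2 difference 4.57 ± 0.66, adjusted p = 2e-07), *Hoxc6* (6.25 ± 0.61, adjusted p = 4.4e-12), *Hoxc9* (5.06 ± 0.65) and *Hoxc10* (4.22 ± 0.72) were higher in fibroblasts, and the same 4 genes with *Hoxc8* were higher in smooth muscle. In all, HoxC gave 3132 UMIs in these 2 libraries, and 12, 18 and 1 in the aging pool, the diet pool and the single-mouse diet libraries. *Hoxc10* and *Hoxc5* share exon sequence on one strand (chromosome 15), and their UMIs cannot be told apart there. The same holds for *Hoxd3* and *Hoxd4* (chromosome 2), and *Hoxd10* and *Hoxd11* each overlap the gene model *Gm28309*.

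*Hoxd13* and *Hoxa13* went the other way. Both individuals had 0 *Hoxd13* UMIs in fibroblasts, where the other 21 mice had 430, a level at least 55.7-fold lower. *Hoxa13* had 1 UMI in the young individual (0.770 CPM), 0 in the old and 236 in the other mice, a pooled ratio of 91.7 (95% interval 16.3 to 3637). In smooth muscle both genes had 0 UMIs in these individuals, against 84 and 50, at least 92.4-fold and 55.0-fold lower. *Hoxd11* was lower in fibroblasts (log2 difference -2.12 ± 0.44, adjusted p = 0.00017) and in smooth muscle (-2.86 ± 0.95, adjusted p = 0.033).

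The next genes of the HoxA cluster did not pass the test. *Hoxa10* stood at 50.0 and 32.8 in the fibroblasts of the young and the old individual, inside the range of the other mice, with a log2 difference of -0.36 ± 0.29 (adjusted p = 0.44). *Hoxa11* stood at 10.0 and 6.25 (-0.78 ± 0.48, adjusted p = 0.28). *Hoxb2*, the third gene that did not pass, differed by -0.35 ± 0.38. A value past the threshold for *Hoxa13* and not for *Hoxa10* does not by itself show that they differ, and that difference was not tested. *Hoxd10* was higher in these fibroblasts (1.88 ± 0.40), next to *Hoxd11*, which was lower.

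**Figure D3:**
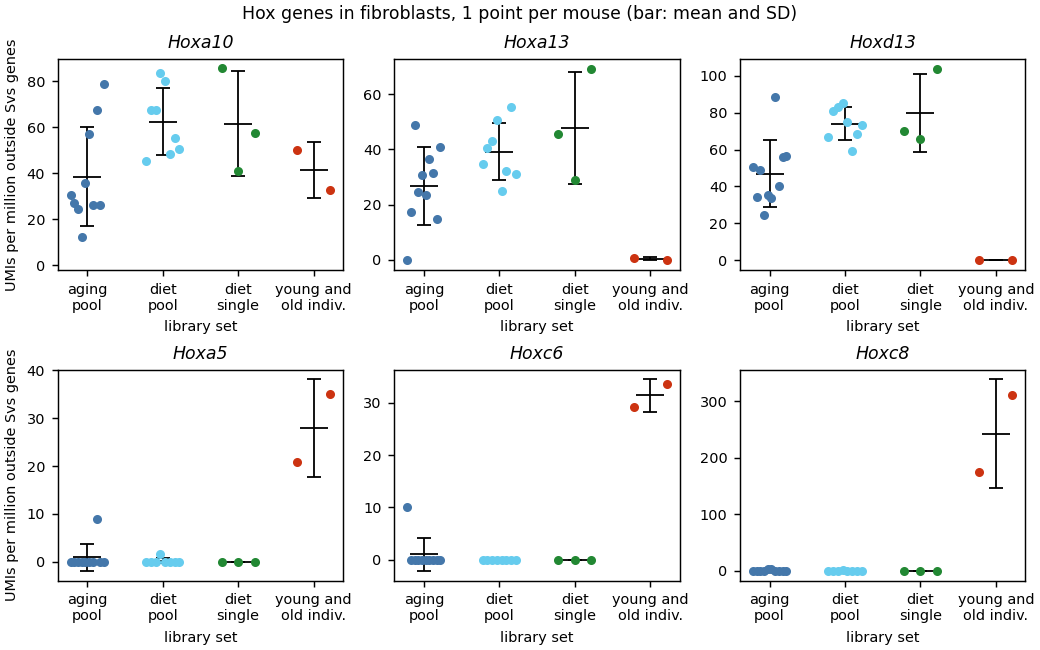
Level of 6 Hox genes in fibroblasts, in CPM outside *Svs* genes, with 1 point per mouse and the mean with SD as bars, by library set (10, 8, 3 and 2 mice). *Hoxa10* overlaps between the sets, *Hoxa13* and *Hoxd13* are at or near 0 only in the young and the old individual apart from 1 aging-pool mouse at 0 for *Hoxa13*, and *Hoxa5*, *Hoxc6* and *Hoxc8* are high only there.

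Middle genes of HoxA were higher as well. *Hoxa5* stood at 20.8 and 35.2 in fibroblasts of the 2 individuals and at 0 in 19 of the other 21 mice (5.54 ± 0.61, adjusted p = 5.5e-11). *Hoxa7* stood at 39.2 and 43.8, above the highest other mouse at 14.9 (3.68 ± 0.44, adjusted p = 4.9e-10). *Hoxa3* (3.31 ± 0.73) and *Hoxa9* (1.68 ± 0.50) passed the test, with *Hoxa9* overlapping between the groups: its highest other mouse was at 18.7 and the 2 individuals at 19.2 and 14.1.

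*Hoxb3* to *Hoxb9* were higher in these fibroblasts, by log2 differences between 1.67 ± 0.52 (*Hoxb3*) and 4.04 ± 0.66 (*Hoxb9*), and *Hoxd8* and *Hoxd9* by 2.93 ± 0.55 and 3.05 ± 0.51. The same genes were most abundant in the other epithelial cells of the same libraries, at 188 for *Hoxb6*, 204 for *Hoxb7*, 159 for *Hoxb8*, 85.7 for *Hoxb9* and 115 for *Hoxd8*. *Lcn8* and *Gpx5*, products of that epithelium, stood in fibroblasts at 8.74% and 11.1% of their epithelial level and in smooth muscle at 25.3% and 25.0%. *Hoxb6*, *Hoxb7*, *Hoxb8* and *Hoxb9* stood in fibroblasts at 16.3%, 14.1%, 11.9% and 18.1% of theirs and in smooth muscle at 30.8%, 27.1%, 28.4% and 24.4%. Immune cells of the 2 individuals, at 15.2% for *Lcn8*, held 107 to 335 CPM of Hox genes. The part of epithelial RNA in the stromal values of these genes was not tested.

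*Hoxc8*, *Hoxd10* and all 8 HoxA genes with at least 20 epithelial UMIs were at higher levels in these fibroblasts than in the epithelium. *Hoxc8* stood at 2.41 in other epithelial cells of the 2 individuals and at 242 in their fibroblasts, and *Hoxa5*, *Hoxa7* and *Hoxa10* at 3.47, 5.70 and 2.02 against 27.9, 41.5 and 41.5. *Hoxb4* stood at 110% and *Hoxb3* at 72.2% of their epithelial levels. Endothelial cells, at 6.88% for *Lcn8*, held *Hoxb4* at 302% and *Hoxa7* at 602%.

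**Figure D4:**
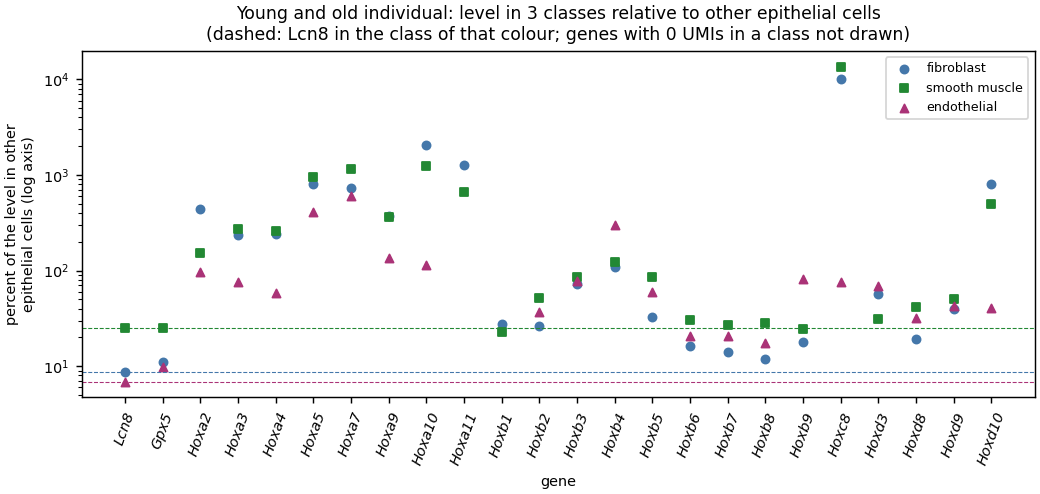
Level of each gene in fibroblasts, smooth muscle and endothelial cells of the young and the old individual, as a percent of its level in their other epithelial cells (log axis), for *Lcn8*, *Gpx5* and the Hox genes with at least 20 epithelial UMIs. *Hoxb6* to *Hoxb9* lie near the *Lcn8* level of smooth muscle and at 11.9 to 18.1% in fibroblasts, above *Lcn8* there at 8.74% (dashed lines mark *Lcn8* in each class), and *Hoxc8*, *Hoxa10* and *Hoxa7* lie far above in stroma.

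Smooth muscle gave 15 higher and 3 lower of 26 Hox genes tested, beside 8.69% higher and 1.03% lower of all 11114 genes. The aging pool, with fewer than 10 such cells per mouse, was not in this comparison. The median of all genes was itself shifted by 0.91 (0.56 with library size scaling), so a Hox gene near that value did not stand apart. *Hoxc6* had 180 UMIs in the 2 individuals and 0 in the other mice, at least 18.2-fold higher. *Hoxa7* was higher (2.85 ± 0.62) and *Hoxa10* did not pass (-1.39 ± 0.57, adjusted p = 0.11). The smooth muscle gate need not hold the same mix of cells in both groups. In the 2 individuals its cells had *Tagln* at 3973 and *Cnn1* at 716 CPM of all UMIs, against 17240 and 2498 in the other mice. *Acta2* stood at 10180 against 17140. The fibroblast genes *Pdgfra* and *Lum* stood at 114 against 17.1 and at 2.72 against 23.3. The part of these differences in the Hox values was not tested. The 2 individuals had 2383 smooth muscle cells, and the diet pool and the single-mouse diet libraries 278 and 36. Against those 36 cells alone *Hoxc8* was the 1 Hox gene called of 23 tested, beside 360 higher and 55 lower of all 10648 genes. With the DESeq2 test 3 Hox genes were lower (*Hoxa13*, *Hoxd11*, *Hoxd13*) and 0 higher, with 9 Hox genes at an unadjusted p under 0.05. That test called 145 of all 11114 genes higher and 164 lower.

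Basal cells gave 12 higher and 3 lower of 22 tested, beside 19.8% and 7.05% of all 12441 genes. The lower genes were again *Hoxa13*, *Hoxd11* and *Hoxd13*, with 0, 1 and 0 UMIs in the 2 individuals. The single-mouse diet libraries, however, had 2, 4 and 1 UMIs of these genes in their basal cells. Against them alone 3 of 17 Hox genes were higher (*Hoxb6*, *Hoxb7*, *Hoxc8*) and none lower, beside 1119 and 1001 of all 11680 genes. At an unadjusted p under 0.05 there were 8 Hox genes and 3564 of all genes. Against the diet pool alone 11 were higher and 8 lower, beside 2429 and 1447 of all 12133 genes. With the DESeq2 test 9 were higher and 5 lower, beside 1165 and 1086 of all 12441 genes. *Hoxb9* shows the same split, since 115 and 112 in the 2 individuals lay within the 105 to 136 of the single-mouse diet libraries and above both pools. *Hoxb6* (50.1 and 54.0) and *Hoxb7* (45.9 and 52.4) were above every other mouse, whose highest values were 26.1 and 27.6.

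Other epithelial cells gave 11 higher and 1 lower of 25 tested, beside 18.2% and 5.67% of all genes. *Hoxb7* was at 154 and 227 in the 2 individuals and at most 93.8 elsewhere (2.86 ± 0.36), *Hoxb6* at 182 and 191 and at most 147 (2.15 ± 0.67), and *Hoxd13* was lower (-6.95 ± 1.18), with 1 UMI in the 2 individuals and 48 in the other mice. With library size scaling 5 were higher and 1 lower, and without the old individual 5 were higher and 1 lower. Of all 13773 genes, library size scaling called 1116 higher and 1294 lower. Against the diet pool alone 8 Hox genes were higher and 5 lower, beside 1804 and 1279 of all 13674 genes. With the DESeq2 test 4 were higher and 3 lower, beside 838 and 1130 of all 13773 genes. The gate is defined by the absence of other markers, so it need not hold the same kind of cell in both groups.

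In endothelial cells, of 15 Hox genes tested, *Hoxb6* (3.48 ± 0.73), *Hoxb7* (1.89 ± 0.54) and *Hoxb9* (1.18 ± 0.38) were higher and none lower, beside 8.54% and 1.34% of all genes, with 7 Hox genes at an unadjusted p under 0.05. With the DESeq2 test 0 were higher and 1 lower (*Hoxd10*), beside 153 and 257 of all 9536 genes. With doubled gate limits none of 13 Hox genes was called, beside 251 higher and 48 lower of all 7786 genes. *Hoxa7*, at 38.8 and 26.2 in the 2 individuals and 38.6 ± 25.7 in the others (log2 difference 0.04 ± 0.43, adjusted p = 0.98), and *Hoxa5* (-0.08 ± 0.58) lay inside the spread of the other mice.

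**Figure D5:**
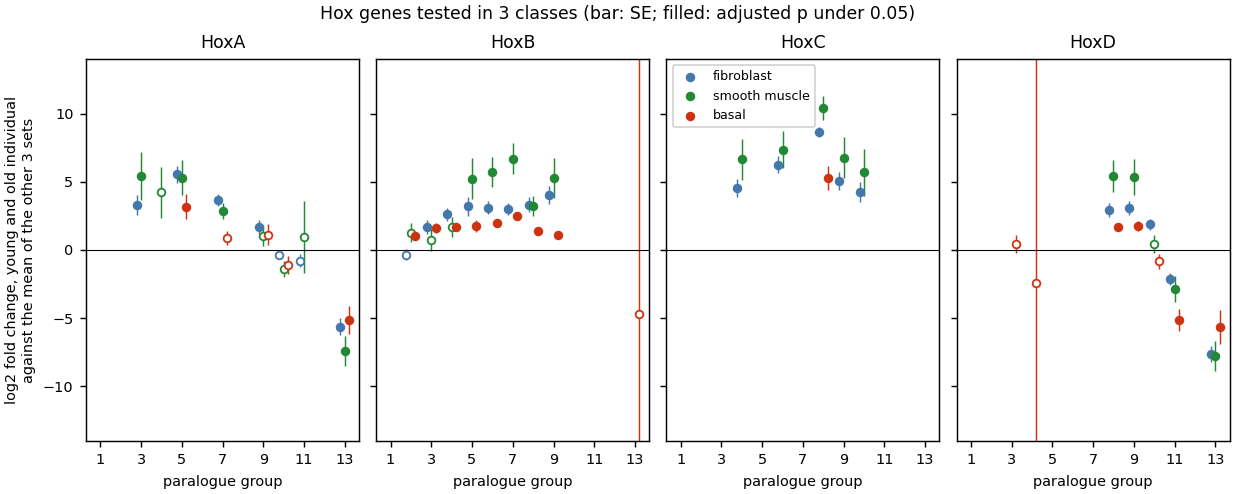
Log2 fold change of each tested Hox gene in the young and the old individual, by cluster and paralogue group, in 3 classes. Fibroblasts and basal cells were set against the mean of the other 3 sets. Smooth muscle was set against the mean of the diet pool and the single-mouse diet libraries. Bars are SE and filled points have an adjusted p under 0.05. Group 13 of HoxA and HoxD lies below 0 in all 3 classes and all HoxC genes tested lie above; the bars of *Hoxb13* and *Hoxd4* in basal cells run off the axis.

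Fibroblasts and basal cells of the same mouse were set against each other in 1 fit, which was added once the values were known. The difference between the 2 individuals and the other sets was more positive in fibroblasts for 5 of 30 Hox genes tested and more negative for 1, beside 3.57% and 4.81% of all genes. The 5 were *Hoxb9* (3.13 ± 0.70), *Hoxd11* (2.78 ± 0.79), *Hoxa7* (2.75 ± 0.74), *Hoxd10* (2.62 ± 0.72) and *Hoxb8* (1.97 ± 0.53), and the 1 was *Hoxb2* (-1.33 ± 0.39). Without the young individual 2 were called (*Hoxb8*, *Hoxb9*), and without the old individual 2 (*Hoxd10*, *Hoxd11*).

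Genes beside the 2 posterior Hox genes moved with them. *Hottip*, a noncoding RNA next to *Hoxa13*, and *Evx1*, the homeobox gene beyond it, each had 33 UMIs in fibroblasts of the 21 mice and 0 in the 2 individuals (edgeR adjusted p = 0.0026 for both). *Evx2*, beyond *Hoxd13*, had 44 and 0 (adjusted p = 0.025). Of the list of other transcripts of the Hox clusters, 7 were tested, 3 were higher (*Hoxb5os*, *Hoxd3os1* and *Hotairm1*) and these 3 lower, beside 12.8% and 6.45% of all genes in that comparison.

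Other transcription factors of the genital tract were read from a list of 21, against the same 12.8% of all genes higher and 6.45% lower. In fibroblasts 15 were tested, 6 were higher in the 2 individuals (*Pax8*, *Esr1*, *Emx2*, *Gata2*, *Nr2f2*, *Osr2*) and 5 lower (*Isl1*, *Nr2f1*, *Hand2*, *Foxf1*, *Wt1*), with a median of 0.00. *Isl1*, a homeobox gene of genital mesenchyme, ran from 147 to 413 in fibroblasts of the 21 mice (1457 UMIs) and had 0 UMIs in the 2 individuals, at least 189-fold lower. *Pax8*, a gene of the embryonic duct, was higher (3.66 ± 0.69). *Lcn8* and *Gpx5* stood in the same fibroblasts at 8.74% and 11.1% of their epithelial level. The part of epithelial RNA in the values of these factors was not tested. Of 19 polycomb and trithorax genes, which hold Hox genes silent or active, 2 were higher and 2 lower, near the shares of all genes. Of the epididymis list 9 of 11 were higher in these fibroblasts, beside 12.8% of all genes, and they include *Lcn8* and *Gpx5*, and neither prostate gene was called.

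Among the mice with *Svs* RNA, the 2 pools were compared in fibroblasts on 1 reference. Strain, age, diet and library cannot be told apart there. Of 12 Hox genes tested, none was higher in the aging pool and *Hoxb4* (-2.39 ± 0.64, 1.58 ± 2.73 against 9.97 ± 6.90) and *Hoxd13* (-0.72 ± 0.19, 46.9 ± 18 against 73.9 ± 8.86) were lower, beside 5.42% and 5.65% of all genes. Age gave no call among 6 Hox genes tested in the aging pool (10 mice, rapamycin as a covariate) (0.0734% of all genes were called, and 0 Hox genes had an unadjusted p under 0.05), and the slopes per month lay between -0.04 ± 0.03 (*Hoxb2*) and -0.01 ± 0.02 (*Hoxa10*). Diet gave no call among 10 tested (1.82% of all genes were called), with *Hoxb2* and *Hoxa11* at an unadjusted p of 0.0026 and 0.030 and adjusted p of 0.097 and 0.44. The young and the old individual are 1 mouse each, so the difference between 3 and 18 months has no replicate check: *Hoxc8* was higher in the old individual in fibroblasts (311 against 175) and *Hoxa10* lower (32.8 against 50.0).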

How the data were processed

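Droplet single-cell RNA-seq of the mouse seminal vesicle was read from 23 mice, in 5 single-mouse libraries and 2 multiplexed pools. The deposited matrices hold whole-number UMI counts per gene and cell, made by the authors with Cell Ranger on mm10 references and, per the labels, filtered with Seurat. The references differed between single libraries and pools, so 30406 shared genes were used. No column of sample values was left unused (0). Ages and diets of pooled mice came from the names of the demultiplexed tables.

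A cell was kept at 500 or more genes, 200 or more UMIs and no more than 10% mitochondrial UMIs. Classes were set by marker gates, and 2550 cells that passed several were left out, which was the only step against doublets. Collagen, *Myh11* and the other gate genes are no results. UMIs were summed per mouse and class. Sums were tested with edgeR 4.0.16 (quasi-likelihood, TMM, Benjamini-Hochberg adjustment over all genes, threshold 0.05) in mice with at least 10 cells of the class and genes with at least 20 UMIs. The young and the old individual were set against the mean of the other 3 sets. In smooth muscle no aging-pool mouse had 10 such cells, so the mean was over the diet pool and the single-mouse diet libraries. Classes were set against the other gated cells of the same mouse, with the mouse as a block. Each SE is the log2 difference over the square root of F. Intervals of pooled ratios are 95% and, like the floor of 3 counts, cover counting error only.

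Every Hox gene was accounted for, and those with at least 20 UMIs that passed were named or counted. The members and all lists were chosen with earlier results of these data known. The test script was checked on simulated counts. Alternatives were DESeq2 1.42.0, library size scaling, other filters and gates, other comparison libraries and leaving out single libraries. The diet and age fits used the library set and rapamycin as covariates. The count over the list of TALE genes is not reported here.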

Additional observations from a re-analysis of the deposited data

Results flagged for a closer look

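Single mice stood far from the rest of their group in 4 of the 40 groups of a gene, class and pool that were looked at, where chance gives about 1 in 20. *Hoxd13* in fibroblasts was at 88.4 CPM in 1 mouse of 28 months with rapamycin in the aging pool. The same mouse had the highest *Hoxb9* of the prostate-like cells of that pool, at 89.6. *Hoxb9* in secretory cells was at 56.7 in 1 mouse of 28 months without rapamycin and at 209.5 in 1 calorically restricted mouse of the diet pool. These mice had 31 and 16 secretory cells.

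The difference of the young and old individuals from the other sets was unequal in fibroblasts and basal cells, by an interaction term in edgeR added once the values were known, for *Hoxa7* (2.75), *Hoxb8* (1.97), *Hoxb9* (3.13), *Hoxd10* (2.62), *Hoxd11* (2.78) and *Hoxb2* (-1.33) on the log2 scale, fibroblast minus basal.

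The second *Hoxd4* entry of the older reference, which no comparison used, held 46 UMIs in the young and the old individual and 16 in the single-mouse diet libraries, against 16 and 3 on the shared entry. The pools, counted on the newer reference, held 160 and 195 on the shared entry.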

How the results depend on the processing

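Counts of Hox genes called that moved by over 1.5 times are given here, with the cause not tested. For the young and the old individual against the other sets, DESeq2 called 13 in fibroblasts, 3 in smooth muscle, 1 in endothelial and 7 (4 higher, 3 lower) in other epithelial cells. The default low-count filter of edgeR called 5, 1, 0 and 4 in the same classes and 8 in basal cells, with 2 to 9 Hox genes left to test. Against the single-mouse diet libraries alone, 1 was called in smooth muscle, 3 in basal, 0 in endothelial and 6 in other epithelial cells. Doubled gate limits left 0 in endothelial cells, and library size scaling 6 in other epithelial cells. Between the pools, 4 were called with no filter on low counts and 1 with doubled gates, and endothelial cells against the other cells gave 11 with library size.

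Leaving out 1 single-mouse library at a time gave 16 to 22 calls in fibroblasts, 13 to 18 in smooth muscle, 11 to 15 in basal cells, 0 to 4 in endothelial cells, 6 to 10 in other epithelial cells and 2 to 6 for fibroblasts against basal cells. For a class against the other cells it gave 21 (secretory), 17 (fibroblast), 13 (smooth muscle), 7 to 10 (basal) and 17 to 18 (endothelial), and 0 for diet. The prostate-like fit held no single-mouse library, since none had 10 such cells. Nothing was left out there, so its 19 calls could not change. With 1 of the 2 individuals left out, the lone mouse is assumed to vary like the other sets.

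Library size scaling turned the sign of *Hoxb2* (0.42), *Hoxb5* (0.63) and *Hoxd8* (0.78) in basal cells, of *Hoxb7* (0.73), *Hoxb8* (0.27) and *Hoxb9* (0.38) in endothelial cells, and of *Hoxb2* (-0.31), *Hoxb9* (-0.58), *Hoxd3* (-0.39) and *Hoxd8* (-0.0939) in secretory cells. Against the single-mouse diet libraries alone *Hoxb2* in basal cells (-0.58) and *Hoxb9* in endothelial cells (-0.17) turned. Of the other values of single genes, 1742 kept their direction and side of the threshold and 202 kept the direction alone. Classes of the same mouse were compared with the mouse as a block. Between library sets, by replicate number, no paired analysis was possible because these numbers only name libraries and mark no shared animal, litter or day. With few UMIs per gene, a Hox gene at 0 in a small class was not detectable at this depth rather than absent.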
